A study of Mus musculus with 64 samples.

Results

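Osgin1 and 9 genes of the NRF2 response (Gclc, Gclm, Nqo1, Hmox1, Srxn1, Txnrd1, Mgst3, Nfe2l2 and Keap1) were followed in the livers and liver tumours of mice. They were chosen by gene symbol, with earlier results of these data known. All 10 had a value among 16593 genes on the array and all 10 were among the 10493 genes tested. NRF2, the protein of Nfe2l2, is a transcription factor that is held in the cytoplasm and sent for degradation by KEAP1. Oxidants and electrophiles modify KEAP1, NRF2 then accumulates and, with small MAF proteins, binds antioxidant response elements near genes for glutathione synthesis, thioredoxin reduction and detoxification. NRF2 is controlled largely through its protein, which the arrays do not measure. In liver the pathway is known for drug and carcinogen detoxification, and it is often activated in hepatocellular carcinoma.

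Male C57BL/6 mice received 1 intraperitoneal injection of the liver carcinogen diethylnitrosamine at 2 weeks of age, 50 mg per kg body weight, so every animal carried that exposure, controls included. From about 44 weeks they were gavaged with 2 doses per day for 28 days with placebo, BEZ235 at 30 mg per kg, RAD001 at 10 mg per kg, or both drugs at the lower doses of 18 mg per kg BEZ235 and 2.5 mg per kg RAD001. Tissue was taken at 48 weeks after a fast of 3 h, with the last dose of RAD001 given when the fast began and that of BEZ235 given 1 h before death. RAD001 (everolimus) is an allosteric inhibitor of mTOR complex 1, and BEZ235 (dactolisib) blocks the kinase activity of both PI3K and mTOR. The 64 arrays came from 31 mice and fell into 8 groups. Livers numbered 7 (placebo), 6 (BEZ235), 7 (RAD001) and 7 (combination). Tumour animals numbered 6, 6, 6 and 4 in the same order, with 10, 10, 10 and 7 tumours. Arrays of 1 animal's tumours were averaged, so each n is a number of animals. The livers came from the same carcinogen-treated cohort, so none was an untreated liver, and 18 animals gave both tissues. Single drugs and combination differ in dose, and RAD001 and BEZ235 differ in the time since the last dose.

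Both tissues held transcripts of hepatocytes, though most hepatocyte genes listed were lower in placebo tumours. Apoa1 and Ttr, plasma proteins of hepatocytes, had mean log2 intensities between 14.86 and 15.02 in all 8 groups, although the probe of Alb was dim (6.56 ± 0.44, SD, n = 7, in placebo livers). The summed intensity of 11 hepatocyte genes ran from 181628 to 191764 in placebo livers and from 107430 to 135651 in placebo tumours. Of these 11 genes 6 were lower and 1 was higher in placebo tumours, with a median difference of -1.25. The sum of 9 Kupffer cell genes ran from 2483 to 6837 in placebo livers and from 637 to 3612 in placebo tumours, with 6 of 9 lower. The Kupffer cell gene Cd163 averaged 7.94 ± 0.36 (SD, n = 7) in placebo livers and 4.68 ± 0.21 (SD, n = 6), near background, in placebo tumours. The summed level of 8 stellate cell genes ran from 291 to 533 in placebo livers and from 773 to 2071 in placebo tumours, with 3 of 8 higher and 1 lower. In an earlier analysis of these data the tumours of animals 693 and 759 (BEZ235) and 730 and 732 (RAD001) lay nearest to liver, and changes without them are given beside the Osgin1 results or among the effects of processing. In these bulk samples fewer cells of a type and less RNA per cell cannot be told apart, and the part of cell makeup in the tumour and liver differences given here was not tested.

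The promoters of the 4 genes that passed a test are shown because NRF2 target genes are known for antioxidant response elements. Each is the RefSeq window from 250 bases before to 50 bases after a transcription start (GRCm38.p6), read 5′ to 3′ on the gene's strand. The windows are chr8:119436897-119437196 on the plus strand for Osgin1, chr2:152105274-152105573 on the plus strand for Srxn1, chr3:122245307-122245606 on the plus strand for Gclm and chr1:167393792-167394091 on the minus strand for Mgst3. Capitals mark matches, on either strand, to 2 forms of the element's core, TGACNNNGC and TGAGNNNGC.
Osgin1: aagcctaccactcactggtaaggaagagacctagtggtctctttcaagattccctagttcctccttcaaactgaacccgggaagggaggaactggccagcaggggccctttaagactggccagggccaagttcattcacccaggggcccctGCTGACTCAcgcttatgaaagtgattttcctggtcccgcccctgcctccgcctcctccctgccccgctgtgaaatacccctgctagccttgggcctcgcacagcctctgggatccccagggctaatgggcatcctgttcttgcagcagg
Srxn1: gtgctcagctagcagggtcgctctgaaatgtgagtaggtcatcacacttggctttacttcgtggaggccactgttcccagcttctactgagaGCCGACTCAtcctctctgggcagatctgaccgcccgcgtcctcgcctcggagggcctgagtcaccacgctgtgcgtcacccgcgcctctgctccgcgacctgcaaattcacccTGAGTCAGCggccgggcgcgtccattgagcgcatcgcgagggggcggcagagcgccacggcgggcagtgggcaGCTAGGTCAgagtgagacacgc
Gclm: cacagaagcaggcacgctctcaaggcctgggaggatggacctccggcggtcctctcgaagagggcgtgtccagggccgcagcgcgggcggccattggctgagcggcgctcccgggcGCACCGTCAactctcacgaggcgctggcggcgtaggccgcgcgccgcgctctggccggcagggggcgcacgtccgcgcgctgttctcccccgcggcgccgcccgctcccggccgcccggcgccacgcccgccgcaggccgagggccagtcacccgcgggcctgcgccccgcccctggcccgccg
Mgst3: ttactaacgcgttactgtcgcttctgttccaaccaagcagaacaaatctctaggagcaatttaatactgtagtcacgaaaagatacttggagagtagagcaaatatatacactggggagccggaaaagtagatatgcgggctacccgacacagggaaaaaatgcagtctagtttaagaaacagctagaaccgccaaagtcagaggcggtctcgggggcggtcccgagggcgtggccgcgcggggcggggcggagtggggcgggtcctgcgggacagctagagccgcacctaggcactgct
The Osgin1 window lies inside the gene's span (chr8:119425882-119446257), and the start of that span was not searched. The Osgin1 window held 1 match, of the second form, which began 99 bases before the start. It held none of the first form, and the second form was added after the first had been searched. Srxn1 held 3, beginning 158 and 45 bases before the start (both of the second form) and at position 29, counted from the start as 1 (of the first form). Gclm held 1, of the first form, beginning 134 bases before the start. No match lay in the Mgst3 window. Of the 8 genes with a window (none was used for Gclc and Hmox1), 5 held a match, the others being Nfe2l2 and 1 of 3 Txnrd1 windows, which makes 5 of 10 windows. Among all 32851 windows, 12.4% held the first form, 17.6% the second and 27.8% either. The forms differ in 1 base and cannot match at the same place on 1 strand. A match describes these letters only.

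Osgin1 encodes a protein named for growth inhibition under oxidative stress and is listed among NRF2 targets in human cells. Its 1 probe was above background on 64 of 64 arrays, and the gene lies at chr8:119425882-119446257. In placebo livers its log2 intensity ran from 9.39 over a median of 9.76 to 10.17. BEZ235 livers ran from 9.91 over 10.41 to 11.04, RAD001 livers from 8.82 over 9.56 to 10.37, and combination livers from 10.23 over 10.95 to 11.55. Every combination liver thus lay above every placebo liver, while the RAD001 and BEZ235 livers overlapped the placebo livers.
In tumours the spread was as wide. Placebo tumours ran from 10.80 over 10.96 to 11.91, BEZ235 tumours from 10.44 over 11.38 to 11.56, and RAD001 tumours from 9.09 over 10.13 to 10.30. The 4 combination tumour animals stood at 11.44, 11.90, 12.20 and 12.89. By animal mean, all RAD001 tumour animals lay below all animals of the other 3 tumour groups. Single RAD001 tumours overlapped those groups, as given below.
By mean the order was combination tumour (12.11 ± 0.61, SD, n = 4), BEZ235 tumour (11.20 ± 0.45, n = 6), placebo tumour (11.11 ± 0.40, n = 6), combination liver (10.94 ± 0.46, n = 7), BEZ235 liver (10.45 ± 0.43, n = 6), RAD001 tumour (9.94 ± 0.47, n = 6), placebo liver (9.76 ± 0.27, n = 7) and RAD001 liver (9.63 ± 0.61, n = 7). All neighbours in this order had overlapping ranges. The share of all genes whose ranges did not overlap was not counted for any comparison. Each lack of overlap given here or below is therefore a description only.

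**Figure D1:**
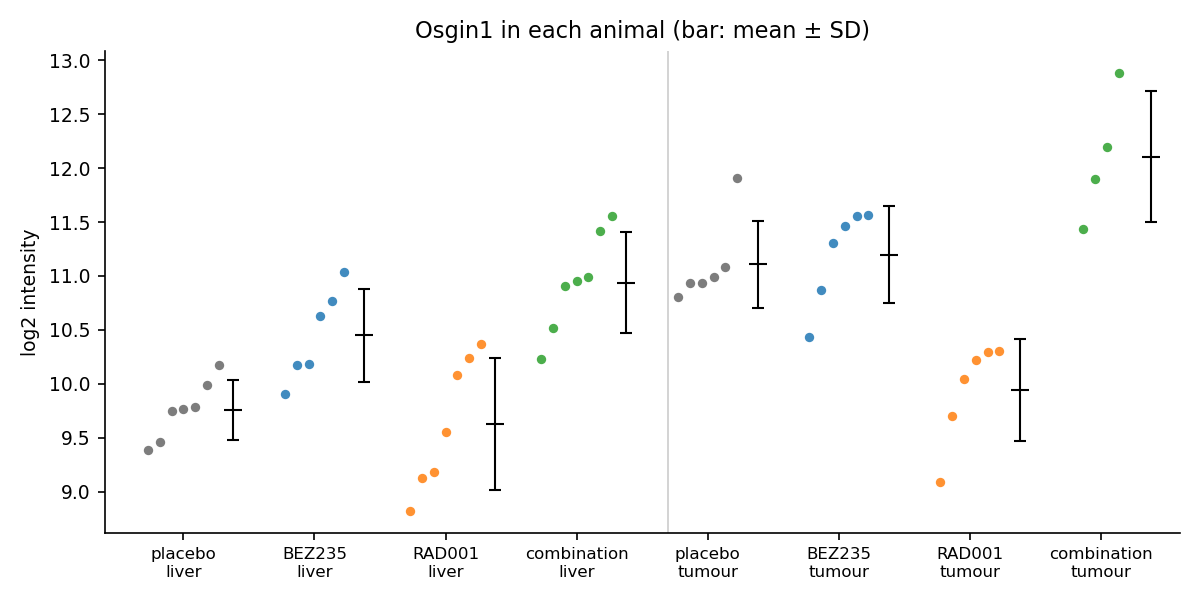
Osgin1 log2 intensity (y axis) in each animal (points) of the 8 groups (x axis), with mean ± SD beside the points. The 4 combination tumour animals sit between 11.44 and 12.89, the RAD001 tumour animals between 9.09 and 10.30.

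The other genes filled narrower bands. Group means of Srxn1 lay between 8.52 and 8.69 in the 4 liver groups and between 10.12 and 10.51 in the 4 tumour groups. Those of Gclm lay between 11.03 and 11.11 in livers and between 10.02 and 10.67 in tumours, and those of Mgst3 between 10.28 and 11.14 in livers and between 9.71 and 10.60 in tumours.
Over all 8 groups the means of Gclc ran from 5.76 (placebo tumour) to 6.54 (combination tumour), of Nqo1 from 6.61 (RAD001 liver) to 7.80 (combination tumour) and of Hmox1 from 5.97 (BEZ235 tumour) to 6.73 (combination liver). Txnrd1 stayed between 4.91 and 5.27, Nfe2l2 between 6.24 and 6.75, and Keap1 between 8.64 and 8.93. Levels of different probes are not comparable with one another.

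The first question was how tumours compared with liver without drug. In placebo animals 4 of the 10 genes passed the test: Osgin1 and Srxn1 were higher in tumour, and Gclm and Mgst3 were lower. The background was high, since 34.8% of all genes passed, and 4 of 10 is near that share. The median difference of the 10 genes was -0.11 and that of all genes 0.01. Differences are on the log2(intensity + 16) scale throughout, from limma with Benjamini-Hochberg adjustment over all 10493 genes and a limit of 0.05.
Osgin1 was higher in placebo tumours by 1.35 (SE 0.24, 2.55-fold, adjusted p = 1.33e-05), and 6 of 6 tumour animals lay above every placebo liver. Srxn1, which encodes sulfiredoxin, the enzyme that restores overoxidised peroxiredoxins, ran from 8.28 over 8.70 to 8.95 in placebo livers and from 8.82 over 10.35 to 10.60 in placebo tumours. The tumour animals lay above all livers with the exception of 1, animal 696, at 8.82. Srxn1 was higher by 1.41 (SE 0.33, 2.66-fold, adjusted p = 0.000475), and its 3 probes gave 1.26, 1.53 and 1.41.
Gclm, the modifier subunit of glutamate-cysteine ligase, which catalyses the first step of glutathione synthesis, went the other way. It ran from 10.76 over 11.06 to 11.36 in placebo livers and from 9.43 over 9.97 to 10.57 in placebo tumours, with no overlap. It fell by 1.05 in tumours (SE 0.20, 2.07-fold lower, adjusted p = 2.69e-05). Gclc, the catalytic subunit of the same enzyme, differed by -0.22 (SE 0.24, adjusted p = 0.521).
Mgst3, a microsomal glutathione transferase and peroxidase, ran from 9.80 over 10.09 to 11.27 in placebo livers and from 9.27 over 9.53 to 10.38 in placebo tumours, which overlap. It fell by 0.58 in tumours (SE 0.24, adjusted p = 0.0495), and a second probe gave -0.70. This call sat at the limit: it was lost in 13 of 21 other settings, with adjusted p up to 0.149.
The other genes did not pass. Nqo1, a quinone reductase, differed by 0.17 (95% CI -0.63 to 0.96). Hmox1, which degrades haem, differed by -0.32 (SE 0.33). Txnrd1, the cytosolic thioredoxin reductase, differed by -0.02 (95% CI -0.43 to 0.39), with its probe above background on 44 of 64 arrays. Nfe2l2 differed by 0.21 (95% CI -0.18 to 0.60) and Keap1 by -0.20 (95% CI -0.46 to 0.06). The 4 Keap1 probes disagreed in sign (-0.20, 0.17, 0.06 and -0.20).

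**Figure D2:**
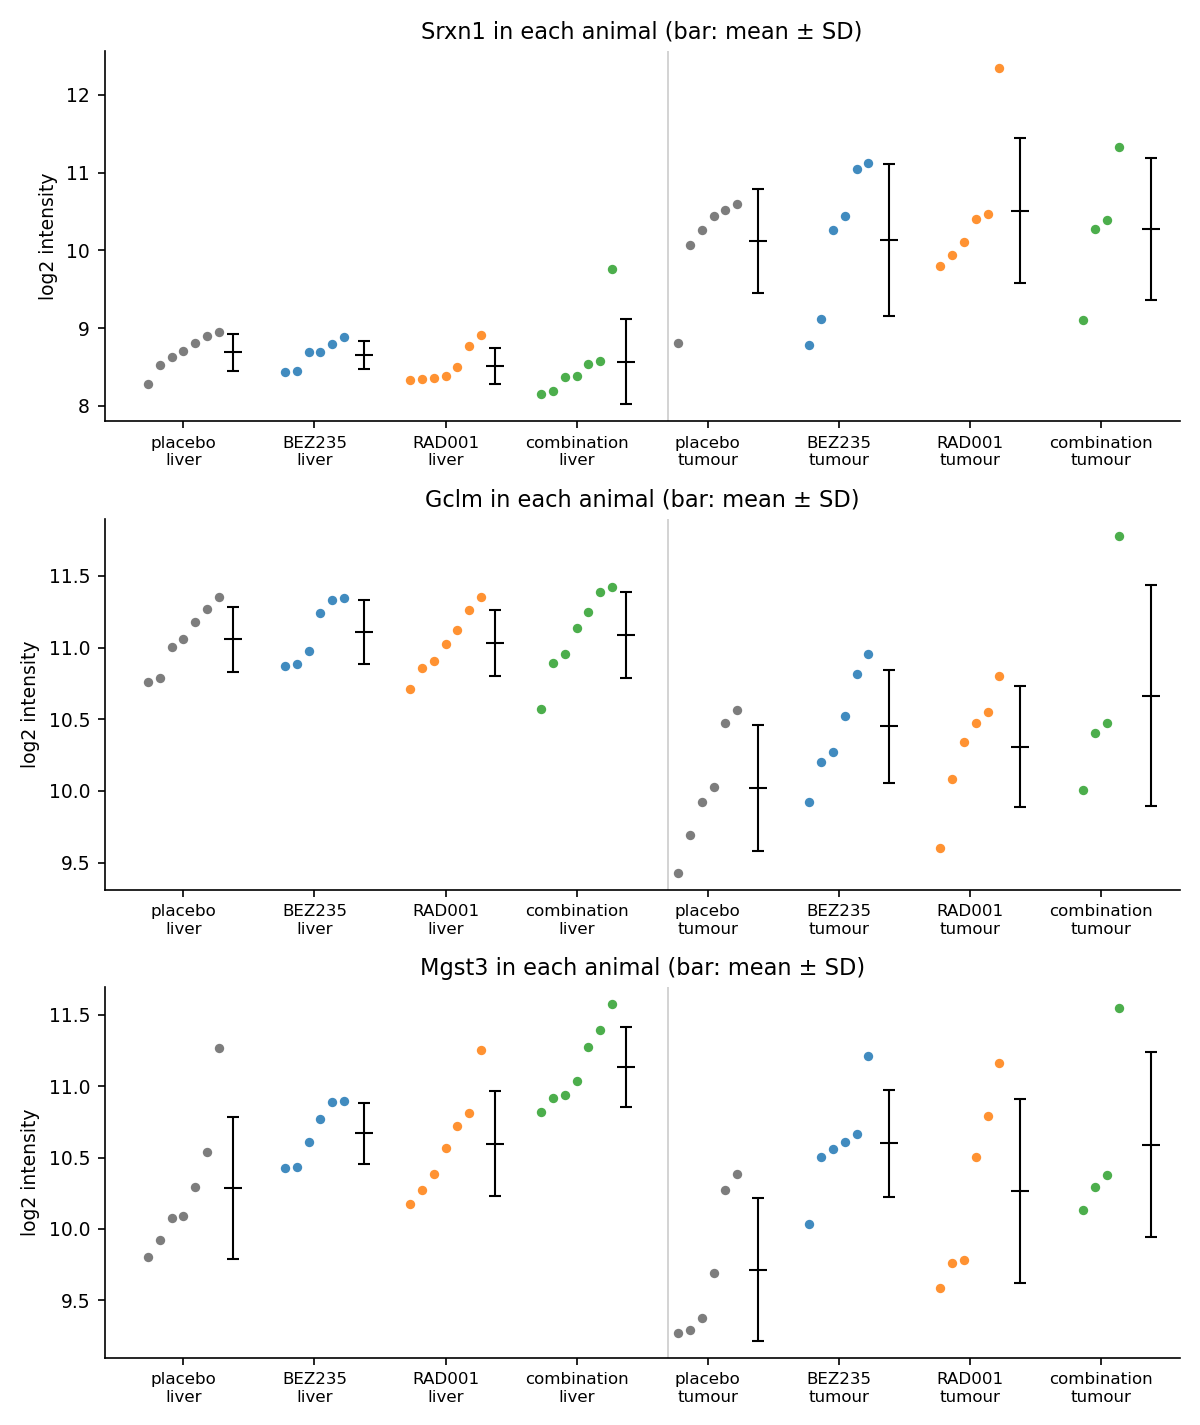
Log2 intensity (y axes) of Srxn1, Gclm and Mgst3 in each animal (points) of the 8 groups (x axes), with mean ± SD beside the points. Srxn1 in placebo livers stays between 8.28 and 8.95, and placebo tumours reach 10.60; Gclm in placebo tumours stays at or below 10.57, under every placebo liver.

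Animals that gave both tissues allowed the comparison within a mouse. In the 4 placebo animals Osgin1 was higher in tumour by 0.63, 1.15, 1.54 and 2.15. It was higher in tumour in 5 of 5 BEZ235 animals (by 0.26 to 0.83) and in 4 of 4 combination animals (by 0.78 to 2.36), but in 3 of 5 RAD001 animals (from -0.67 to 1.40). Srxn1 was higher in tumour in 4 of 4 placebo, 5 of 5 BEZ235, 5 of 5 RAD001 and 4 of 4 combination animals, by 0.01 (animal 696) to 3.43 (animal 732). Gclm was lower in tumour in all 4 placebo animals (from -1.49 to -0.88) and all 5 BEZ235 animals, and higher in 1 of 5 RAD001 and 1 of 4 combination animals. Mgst3 was lower in tumour in 4 of 4 placebo animals and higher in 2 of 5 BEZ235, 2 of 5 RAD001 and 1 of 4 combination animals. Gclc was lower in tumour in 4 of 4 placebo animals (from -0.66 to -0.13) and higher in 4 of 4 combination animals (from 0.05 to 1.49). Nqo1 was higher in 5 of 5 RAD001 animals (from 0.33 to 1.75), 4 of 5 BEZ235, 3 of 4 combination and 2 of 4 placebo animals. Hmox1 was lower in 5 of 5 BEZ235 animals (from -1.55 to -0.41), and was higher in 2 of 5 RAD001, 1 of 4 combination and 1 of 4 placebo animals. Keap1, read by its brightest probe, was lower in 5 of 5 BEZ235 and 5 of 5 RAD001 animals and higher in 1 of 4 combination and 1 of 4 placebo animals. Its 4 probes disagreed in sign in the placebo comparison, as given above. The share of all genes with the same direction in every animal of a treatment was not counted. With the animal as a fixed block, Osgin1 (1.37, adjusted p = 0.00166), Srxn1 (1.13, adjusted p = 0.0332) and Gclm (-1.24, adjusted p = 0.000523) passed and Mgst3 (-0.73, adjusted p = 0.101) did not.

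**Figure D3:**
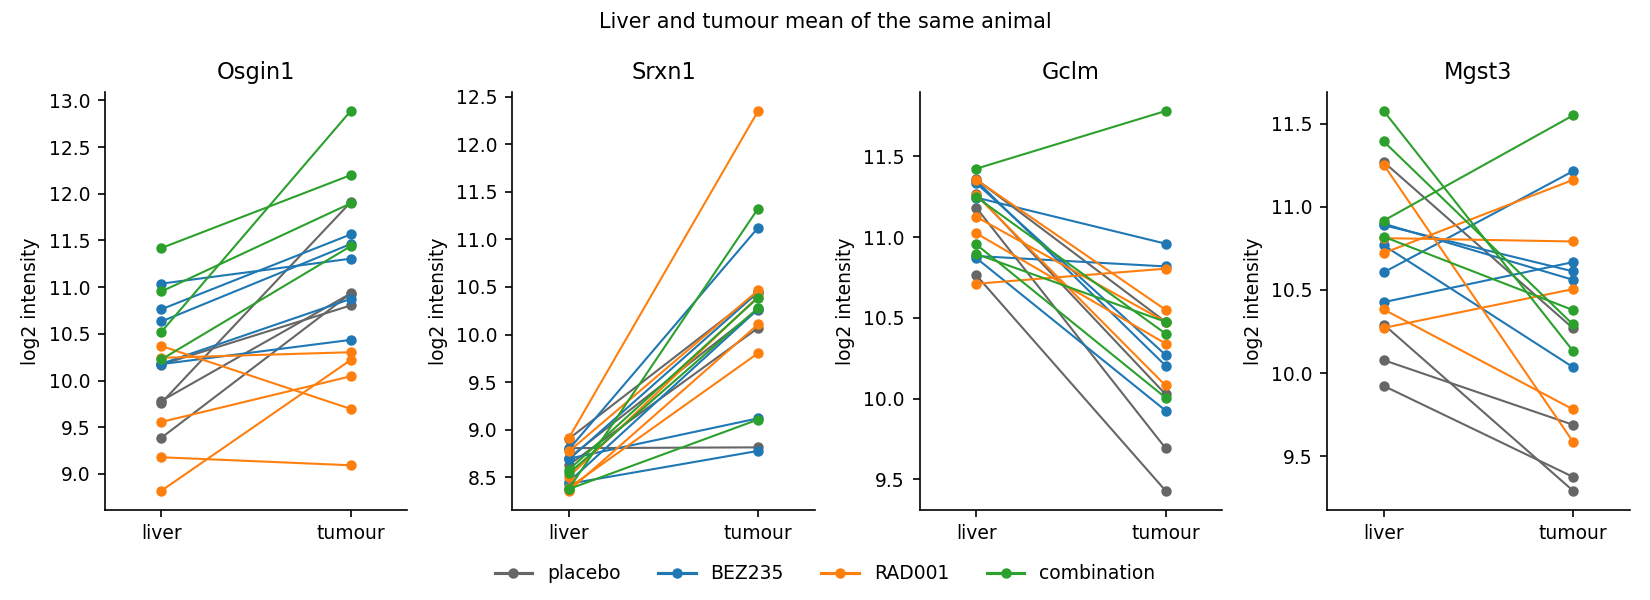
Log2 intensity (y axes) of Osgin1, Srxn1, Gclm and Mgst3 in the liver and the mean of the tumours of the same animal, joined by lines and coloured by treatment. Srxn1 lines all run upward, by 0.01 to 3.43, while Gclm lines of the 4 placebo animals run downward, by 0.88 to 1.49.

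Other genes of the pathway were taken from lists for glutathione, glutathione transferases, detoxification, NADPH, thioredoxin, haem and iron, regulators and other antioxidant enzymes. Of the 73 that were tested, 14 were higher and 23 lower in placebo tumours. Of all 10493 genes 1969 were higher and 1682 lower. The lists were chosen with earlier results of these data known. Their median difference was -0.06, beside 0.01 for all genes.
Of 12 glutathione transferases 3 fell and none rose, where 34.8% of all genes passed in either direction: Mgst1 by 0.94, Gstp1 by 0.65 and Gsta3 by 0.51. Of 8 other antioxidant enzymes 4 fell, among them catalase (Cat, -1.33) and the superoxide dismutases Sod2 (-0.92) and Sod1 (-0.39), as well as the methionine sulfoxide reductase Msrb1 (-0.90).
The other lists were mixed. Of 9 glutathione genes 3 rose and 3 fell, with Chac1, which breaks glutathione down, at 1.46 and the glutathione peroxidase Gpx1 at -0.99. Of 11 thioredoxin genes 3 rose and 4 fell, with the endoplasmic reticulum peroxiredoxin Prdx4 at 0.70 and the mitochondrial reductase Txnrd2 at -0.76. Of 4 NADPH genes 2 fell, Me1 (malic enzyme) at -2.03 and Idh1 at -0.56.
Among 11 detoxification genes, 2 rose and 3 fell, with Ces2g at 1.67 and Ces1g, also a carboxylesterase, at -2.40. Of 6 haem and iron genes 2 rose and 3 fell, with the haem transporter Slc48a1 at 1.72 and Alas1, the first enzyme of haem synthesis, at -1.15. Of 12 regulators 4 rose and 1 fell, and the 2 small MAF genes among those named moved in opposite directions, Maff at 0.78 and Mafg at -0.70.

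The next question was what each treatment did to liver. Combination livers stood apart from placebo livers in 2 of the 10 genes, Osgin1 and Mgst3, where 0.276% of all genes passed (29 of 10493). The 10 genes were chosen with earlier results of these data known, so these counts are descriptions and not a test of the set. Osgin1 was higher by 1.18 (SE 0.23, 2.27-fold, adjusted p = 0.0147), with 7 of 7 combination livers above every placebo liver. The 22 other settings kept it past the limit, with adjusted p from 0.00635 to 0.0461.
Mgst3 ran from 10.82 over 11.04 to 11.58 in combination livers, and 7 of 7 lay above the placebo mean of 10.28. The ranges overlapped, since placebo liver 710 read 11.27. It was higher by 0.85 (SE 0.18, 1.80-fold, adjusted p = 0.038), and its second probe gave 0.96. The call was lost in 12 of 22 other settings, 9 of them the removal of 1 animal (696, 724, 726, 742, 744, 748, 764, 771 or 775), where adjusted p rose to as much as 0.091. The largest adjusted p over all settings was 0.133, with the fit to the 2 groups alone.
The other 8 genes had differences between -0.16 (Txnrd1) and 0.39 (Nqo1), none past the limit, with Srxn1 at -0.12 and Gclm at 0.03. The median of the 10 was 0.10 and that of all genes -0.01.
No marker of any cell list passed the limit between these livers. All 5 neutrophil genes were higher in combination livers, 2 of them with an unadjusted p under 0.05 (8.44% of all genes in either direction), and their summed level ran from 136 over 334 to 486 against 71 over 176 to 274 in placebo livers. The 3 erythroid genes summed to 11117 over 20190 to 23930 against 12999 over 14594 to 19137, and 8 endothelial genes to 2989 over 4121 to 4788 against 4332 over 5134 to 5664. Of the erythroid genes 2 of 3 were higher, 1 at an unadjusted p under 0.05 by limma. The endothelial genes were split, with 3 of 8 higher, and at that limit 1 was higher and 2 were lower. The part of these cell types in the Osgin1 and Mgst3 differences was not tested.

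BEZ235 livers differed from placebo livers in none of the 10 genes by limma at the limit, and 1, Osgin1, had an unadjusted p under 0.05. Over all genes 3 passed (0.0286%) and 5.16% had an unadjusted p under 0.05. Osgin1 differed by 0.69 (95% CI 0.20 to 1.18, adjusted p = 0.848), with 6 of 6 above the placebo mean, and Mgst3 by 0.39 (95% CI -0.01 to 0.78).
RAD001 livers also differed in none of the 10 genes by limma, with none at an unadjusted p under 0.05. No gene of 10493 (0%) passed and 6.42% had an unadjusted p under 0.05. The Osgin1 difference was -0.13 (95% CI -0.60 to 0.34, adjusted p = 0.964).
The drugs were then compared with each other, at the unequal doses given above. Combination livers exceeded RAD001 livers in Osgin1 by 1.31 (SE 0.23, 2.49-fold, adjusted p = 0.00361), 1 of the 10 genes to pass where 0.877% of all genes did (92 genes), although the ranges met between 10.23 and 10.37. Hmox1 (0.70, unadjusted p = 0.0165) and Mgst3 (0.54, unadjusted p = 0.0066) did not pass. For BEZ235 against RAD001 livers, none of the 10 passed by limma and 1 had an unadjusted p under 0.05, against 0.152% and 8.59% of all genes. That gene was Osgin1, at 0.82 (95% CI 0.33 to 1.31, adjusted p = 0.205).
Between combination and BEZ235 livers no gene passed by limma (0%), and 3.90% of all genes and 1 of the 10, Mgst3 (0.47, unadjusted p = 0.0214), had an unadjusted p under 0.05. The Osgin1 difference there was 0.49 (95% CI -0.00 to 0.98). These comparisons share their groups, so they are not independent of each other.

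Of the 73 other pathway genes none passed in combination, BEZ235 or RAD001 livers against placebo livers by limma, with 13, 10 and 1 higher and 0, 1 and 2 lower at an unadjusted p under 0.05. The shares of all genes higher at that limit were 4.58%, 2.72% and 3.59%, and those lower 3.86%, 2.44% and 2.83%. In combination against RAD001 livers 3 rose, the glutathione transferases Gsta1 (1.33, adjusted p = 0.0474) and Gstm2 (0.87, adjusted p = 0.0335) and the cytochrome Cyp2a5 (0.82, adjusted p = 0.0141), where 0.515% of all genes rose. Against RAD001 livers, BEZ235 livers were higher in 1, Gsta1 (1.65, adjusted p = 0.0378), where 0.105% of all genes were.
Against placebo livers, Gsta1 stood at -0.81 in RAD001 livers (adjusted p = 0.705), 0.85 in BEZ235 livers (adjusted p = 0.916) and 0.52 in combination livers (adjusted p = 0.722). The glutathione transferase list had 8 of 12 genes higher at an unadjusted p under 0.05 in BEZ235 livers against placebo, and 4 of 12 in combination livers, none past the limit, beside 2.72% and 4.58% of all genes.

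**Figure D4:**
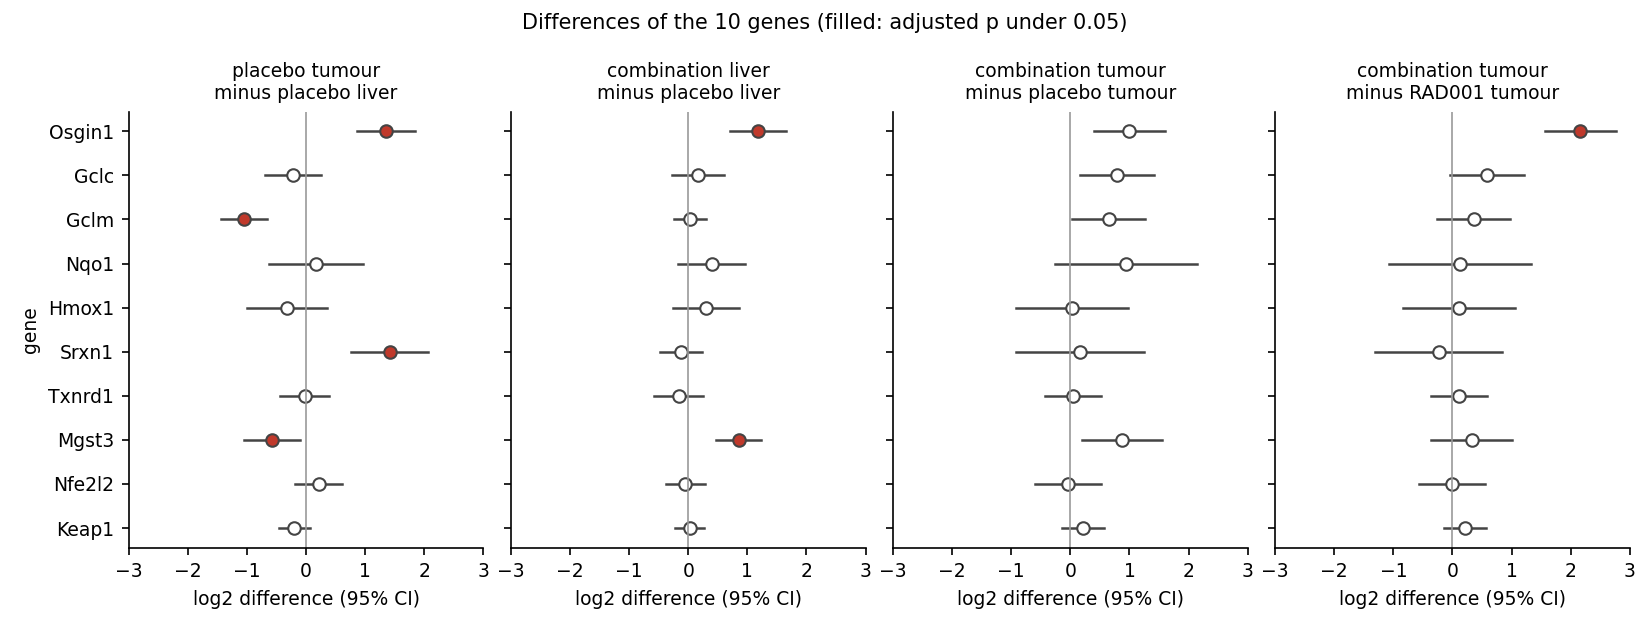
Log2 differences (x axes, points) with 95% confidence intervals (lines) of the 10 genes (y axis) in 4 comparisons, filled where the adjusted p is under 0.05. Osgin1 passes in 3 of the 4 panels, at 1.35, 1.18 and 2.16, and is the only gene of the 10 to pass in the last.

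In tumours no treatment changed any gene past the limit against placebo tumours. BEZ235 tumours gave 0 of 10493 genes by limma and 5.32% with an unadjusted p under 0.05, RAD001 tumours 0 and 7.05%, and combination tumours 0 and 8.00%. Among the 10 genes, 1, 1 and 4 had an unadjusted p under 0.05.
In BEZ235 tumours that gene was Mgst3, which ran from 10.04 over 10.59 to 11.21 against 9.27 to 10.38 in placebo tumours, a difference of 0.89 (95% CI 0.28 to 1.49, adjusted p = 0.909). Osgin1 differed there by 0.09 (95% CI -0.45 to 0.63). In RAD001 tumours it was Osgin1, at -1.17 (95% CI -1.70 to -0.63, adjusted p = 0.357). Its animal means did not overlap those of placebo tumours, though how many of all genes separate in this way was not counted. Without the tumours of the 4 animals nearest to liver the Osgin1 difference was -0.89 (adjusted p = 0.999). Mgst3 differed in RAD001 tumours by 0.55 (unadjusted p = 0.0738 by limma), and its second probe gave 0.72 (unadjusted p = 0.0137).
In combination tumours Osgin1 differed by 1.00 (95% CI 0.40 to 1.60, adjusted p = 0.455), Mgst3 by 0.87 (95% CI 0.19 to 1.55), Gclc by 0.78 (95% CI 0.16 to 1.41) and Gclm by 0.65 (95% CI 0.02 to 1.27). The 10 genes had a median of 0.43 and 9 were above 0, where all genes had a median of -0.01 and 47.7% were above 0.
These values were smaller without 1 animal. Of the 4 combination tumour animals, animal 773 was the highest in 8 of the 10 genes, and animal 775 was the lowest in 7. Gclc read 7.87 in animal 773 and 6.06 to 6.13 in the other 3. Without animal 773 the Gclc difference was 0.34, Gclm 0.28, Nqo1 0.47 (0.94 with it), Mgst3 0.55 and Srxn1 -0.19 (0.16 with it), with Osgin1 at 0.97. Osgin1 was highest in animal 775, and without that animal its difference was 0.74 (adjusted p = 0.476).

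The tumours of the 3 drug groups were compared as well. Combination tumours exceeded RAD001 tumours in Osgin1 by 2.16 (SE 0.29, 4.48-fold, adjusted p = 0.00196), with no overlap of animal means. It was 1 of 2 genes of 10493 (0.0191%) to pass, though chosen with earlier results of these data known. None of the other 9 genes had an unadjusted p under 0.05. The call was lost with 1 tumour per animal (2.21, adjusted p = 0.0588), in the fit to the 2 groups alone (adjusted p = 0.0865) and without the tumours of animals 693, 759, 730 and 732 (1.89, adjusted p = 0.0548). Over the removal of single animals it held, with adjusted p up to 0.0211.
BEZ235 tumours differed from RAD001 tumours in Osgin1 by 1.26 (95% CI 0.72 to 1.79, adjusted p = 0.263), again with no overlap of animal means. The difference was 0.89 (adjusted p = 0.989) without the tumours of the 4 animals nearest to liver. None of the 10 genes passed by limma and 1, Osgin1, had an unadjusted p under 0.05, against 0.00953% and 3.83% of all genes. Between combination and BEZ235 tumours no gene passed by limma (0%), 2.86% had an unadjusted p under 0.05, and of the 10 it was Osgin1, at 0.91 (95% CI 0.31 to 1.51, adjusted p = 1.00). No marker of any cell list passed the limit between combination and RAD001 tumours. Summed hepatocyte genes ran from 131048 to 154785 in combination tumours and from 107039 to 156433 in RAD001 tumours, and neutrophil genes from 117 to 328 and from 65 to 268. All 8 stellate genes were lower in combination tumours, by a median of -0.27 and none past the limit, and their sum ran from 720 over 965 to 1732 against 947 over 1696 to 2389. The part of these cells in the Osgin1 difference was not tested. The 73 other pathway genes had none past the limit in any of the 6 tumour comparisons by limma, with 0 to 6 higher and 0 to 5 lower at an unadjusted p under 0.05, beside 2.86% to 8.00% of all genes in either direction.

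Whether a treatment acted differently in tumour and liver was tested directly as an interaction. None of the 10 genes passed by limma for any treatment. For BEZ235 0% of all genes passed and 5.36% had an unadjusted p under 0.05, for RAD001 0.0191% and 7.50%, and for the combination 0.00953% and 8.44%. Among the 10 genes 0, 1 and 1 had an unadjusted p under 0.05.
For RAD001 that was Osgin1, with an interaction of -1.04 (95% CI -1.73 to -0.36, adjusted p = 0.513), and -0.76 (adjusted p = 0.991) without the tumours of the 4 animals nearest to liver. For the combination it was Gclm (0.63, 95% CI 0.03 to 1.22, adjusted p = 0.579), and 0.32 (adjusted p = 0.958) without animal 773. The combination change of Osgin1 differed between the tissues by -0.17 (95% CI -0.90 to 0.56).

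The 10 genes varied in different ways from animal to animal. Among the 22 tumour animals 12 of 45 pairs had a Pearson correlation above 0.5, and among the 27 livers 1 of 45 did. The share of all gene pairs above 0.5 in the same animals was not counted, so these counts do not set the 10 genes apart from others. The points share their treatments, so the correlation within groups is given beside each, and all are descriptions.
In tumours the closest pair was Nqo1 and Srxn1 (r = 0.82, Spearman's rho = 0.77, within groups 0.84, and 0.80 without the 2 animals farthest from the Nqo1 median). Gclc and Gclm followed (r = 0.75, rho = 0.66, within groups 0.69, and 0.54 without the 2 farthest animals), then Gclc and Nqo1 (r = 0.70, rho = 0.71, within groups 0.71, and 0.55). Nfe2l2 and Hmox1 gave r = 0.62 (rho = 0.59, within groups 0.62, and 0.49). The other pairs of Nfe2l2 in tumours ran from r = -0.17 with Mgst3 (within groups -0.11) to 0.32 with Srxn1 (within groups 0.32).
No pair with Osgin1 was above 0.5. In tumours its r was 0.37 with Gclc (within groups 0.19), 0.13 with Gclm (within groups -0.08), 0.01 with Nqo1 (within groups 0.07) and -0.08 with Srxn1 (within groups 0.07). In livers its highest r with another of the 10 was 0.49, with Mgst3 (within groups 0.07), which ranked 161 of all genes. Its highest value within liver groups was with Gclm, at 0.49 (r = 0.38 over all livers), beside 0.33 to 0.53 for the 5 genes most like it over all livers.
The 5 named genes most like Osgin1 over the 27 livers were Efna1 (r = 0.83, rho = 0.82, within groups 0.51), Klf6 (0.80, 0.79, 0.41), Apobec1 (0.78, 0.80, 0.53), Depp1 (0.77, 0.77, 0.33) and Ccdc120 (0.76, 0.71, 0.50). Over the 22 tumour animals they were Cxcl1 (0.80, 0.80, 0.55), Klf6 (0.78, 0.73, 0.70), Hectd2 (0.78, 0.73, 0.67), Rab40c (0.77, 0.73, 0.80) and Zfp27 (0.77, 0.70, 0.44). Klf6, a zinc finger transcription factor, was in both lists.

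Separate tumours of 1 mouse could be compared in 12 animals. Hmox1 had the widest range within an animal, 5.16 in placebo animal 747, whose 3 tumours read 6.09, 10.54 and 5.38. The median range over the 12 animals was 0.41, and the means of the 22 tumour animals spanned 2.79, so the tumours of this animal differed by more than any 2 animal means did.
Nqo1 had the largest median range of the 10 genes, 1.43. Its 3 tumours in combination animal 726 read 10.28, 8.19 and 5.95, and the 2 in RAD001 animal 772 read 9.38 and 5.29. Osgin1 had a median range of 0.57 and a largest of 2.40, in animal 772, where the tumours read 11.50 and 9.10. RAD001 animal 763 had an Osgin1 pair of 9.24 and 11.20. The RAD001 tumours at 11.50 and 11.20 lay above the lowest placebo (10.80) and BEZ235 (10.44) tumour animals, each with 1 tumour. The separation of RAD001 tumours in Osgin1 thus held for animal means only. The median range was 1.10 for Srxn1 and 0.42 for Gclm.

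**Figure D5:**
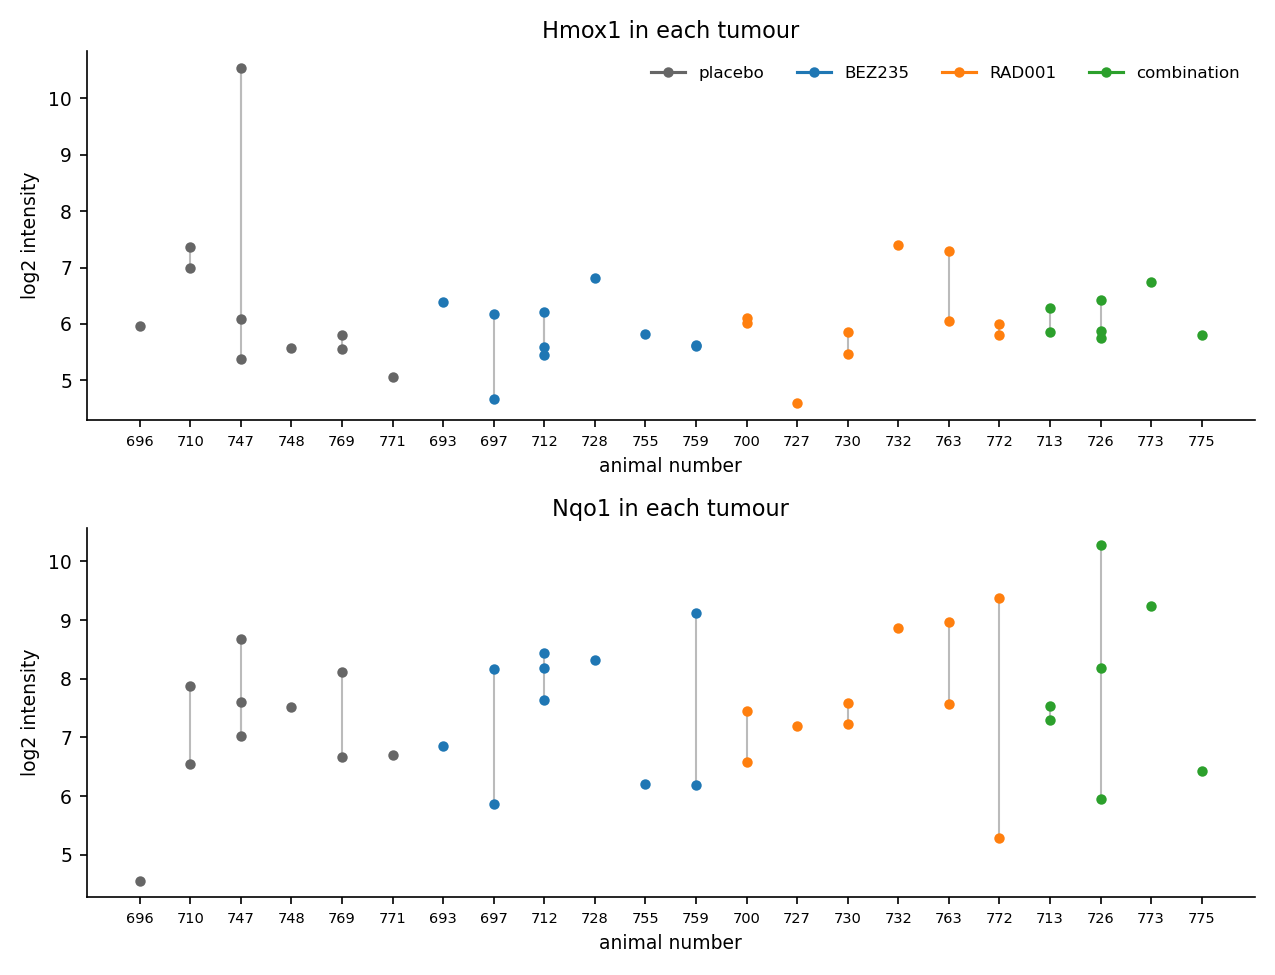
Log2 intensity (y axes) of Hmox1 and Nqo1 in every tumour (points), with tumours of 1 animal above its number (x axes) and joined by a line, coloured by treatment. A tumour of animal 747 reads 10.54 for Hmox1, and Nqo1 spans 4.33 among the tumours of animal 726.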

How the data were processed

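Livers and tumours were hybridised to Illumina mouse bead arrays. The deposited series values are intensities after background subtraction, per the file headers and their values, with BeadStudio named in the submitters' processing notes. Every array of a treatment held the same ranked values, so the deposited intensities had been quantile-normalized within each treatment; the chip of each sample is not given in the sources used here. A table of 128 further value columns was not used, since no column name matched a label. All 64 arrays were quantile-normalized together, corrected by a normal-exponential model (noise SD 7.03, offset 16) and put on a log2 scale. A probe was kept if above 2 noise SDs (14.1) on at least 6 arrays, which left 15241 of 25697 probes and 10493 genes, each by its brightest kept probe. Of 18 probes of the 10 genes, 16 were kept. Probe symbols came from the platform annotation, updated by gene number.

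limma 3.58.1 in R 4.3.3 tested animal means with moderated statistics and Benjamini-Hochberg adjustment: placebo tumour against liver and the interactions were fitted over all 8 groups, each animal being a random block (correlation 0.0968), and other comparisons within the 4 groups of a tissue. Same-numbered samples come from 1 mouse, per the labels, which gives the pairing. The code was tested on simulated data. The highest correlation between 2 arrays was 0.989, and no array was counted as a repeat. The precision is limited by the number of animals per group. Named genes were the 10 genes, up to 4 genes per list with the largest difference past the limit, and the 5 genes most correlated with Osgin1 in each tissue. The 10 genes, the lists and the tests were chosen with earlier results of these data known. The second form of the promoter motif was added after the first had been searched. Alternatives covered normalization, background, offset, probe choice, filters, tumour averaging, the groups fitted, the variance prior and each animal in turn.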

Additional observations from a re-analysis of the deposited data

Results flagged for a closer look

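In 7 of 80 group and gene combinations, 1 animal stood apart from its group by Dixon's test, where chance gives about 1 in 20. Osgin1 in placebo tumour animal 771 read 11.91, where the other 5 ran from 10.80 to 11.09. Gclc in combination tumour animal 773 read 7.87, where the other 3 ran from 6.06 to 6.13. In placebo tumour animal 696, Nqo1 read 4.56, which is near background, against 6.70 to 7.77 in the others, and Srxn1 read 8.82 against 10.07 to 10.60. Srxn1 in RAD001 tumour animal 732 read 12.35 against 9.81 to 10.46, and in combination liver animal 742 it read 9.76 against 8.15 to 8.58. Hmox1 in RAD001 liver animal 745 read 4.70 against 6.00 to 6.81. Without animal 696 the placebo tumour difference from liver was 0.67 for Nqo1 (adjusted p = 0.183) and 1.70 for Srxn1 (adjusted p = 9.956e-05).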

How the results depend on the processing

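The 8 calls kept their sign in every alternative run, which were 12 settings and the removal of each of 31 animals. Of the 160 estimates over 10 genes and 16 comparisons, 69 changed sign in at least 1 alternative, none of them a call. The number of genes called in combination livers against placebo livers fell from 2 to 1 (Mgst3 lost) with no background correction, with no filter on dim probes and with only the groups compared, and ran from 1 to 2 when single animals were left out. In combination against RAD001 tumours it fell from 1 to 0 (Osgin1 lost) with 1 tumour per animal, with only the groups compared and without the tumours of animals 693, 759, 730 and 732, which lay nearest to liver in an earlier analysis of these data. Osgin1 changed sign around 0 in BEZ235 against placebo tumours (-0.0022 without those 4 animals' tumours) and in RAD001 against placebo livers (0.0032 without animal 763, and from -0.25 to 0.0032 over single animals left out). With the animal as a fixed block, placebo tumour against liver kept 3 of 4 calls and 2473 of all genes passed. Counts over all genes moved by over 1.5 times in several comparisons with few calls: from 29 to between 14 and 44 in combination livers against placebo, from 92 to between 46 and 95 in combination against RAD001 livers, from 16 to between 6 and 24 in BEZ235 against RAD001 livers, from 2 to between 0 and 7 in combination against RAD001 tumours, and from 3 to between 0 and 3 in BEZ235 against placebo livers (0 without animal 693 or 759). The interactions gave 0 to 4 genes for BEZ235 (0 as reported), 0 to 3 for RAD001 (2 as reported) and 0 to 13 for the combination (1 as reported), with 0 for RAD001 and 13 for the combination without the tumours of the 4 animals nearest to liver. Combination against placebo tumours gave 10 genes with every tumour as its own array. The Txnrd1 probe was above background on 44 of 64 arrays, that of Hmox1 on 61 and that of Nqo1 on 63, which limits what their lowest values can show.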
